A study of Mus musculus with 9 samples.

Results

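The genes described here are 42 components of the cell division machinery, taken by name from the 44886 genes of the deposited count files. Earlier results of these data were known when they were chosen. They cover the marks of cycling cells, the cyclins and their kinase, replication licensing, nucleotide supply, the transcription factors of the cycle, mitotic kinases and checkpoint proteins, partners of the anaphase-promoting complex, spindle motors, centromere proteins and proteins of cytokinesis. All 42 were found in the files and all 42 were among the 16368 genes that passed the filter on low counts. The samples were striata dissected at E17.5 (E for embryonic day) from 9 mouse embryos of a C57BL/6 background, each collected on its own according to the labels. There were 3 Control embryos, 3 Islet1Cre;Ebf1fl/- embryos and 3 Dlx5/6::Cre;Ebf1fl/- embryos. In both mutants 1 allele of Ebf1, which encodes a transcription factor of direct pathway striatal projection neurons (dSPN), is a null allele and the other is floxed. Females homozygous for the floxed allele were mated with males that carried the null allele and either Cre. The Controls were heterozygous embryos. Islet1Cre is described as recombining in cholinergic interneurons and in dSPN that have differentiated, and Dlx5/6::Cre in projection neurons of both the direct and the indirect pathway, from the subventricular zone on, and in interneurons. The Islet1Cre line was kept on another background (B6D2F1/J).

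Striatal projection neurons are postmitotic. They come from progenitors of the lateral ganglionic eminence, which divide in the ventricular zone at the edge of the lateral ventricle and in the subventricular zone beside it. In a dividing cell the cyclin E genes and E2F factors start DNA synthesis. The MCM helicase and the sliding clamp of the replication fork take part in copying the genome. Cyclins A and B with Cdk1 drive mitosis, after which the anaphase-promoting complex has these cyclins destroyed. Most of these transcripts are made mainly in cycling cells. In bulk tissue fewer dividing cells and less RNA per dividing cell cannot be told apart.

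Totals ran from 16548083 to 41507049 counts per embryo. Gene-level counts of Ebf1 were not lower in the mutants, at 7945 to 14208 normalized counts in Control, 13210 to 15343 in Islet1Cre;Ebf1fl/- and 11774 to 15312 in Dlx5/6::Cre;Ebf1fl/-. They cover the whole gene and do not check the deletion, so the genotypes below are those of the labels. The library labelled Dlx5/6::Cre;Ebf1fl/- replicate 1 stood apart from the other 2 of its genotype, since its counts differed from theirs by a chi-square of 50.8 and 43.7 for each degree of freedom, where those 2 differed by 12.6. Pairs in the other genotypes were also uneven, though less so. Control replicate 1 differed from replicates 2 and 3 by 30.6 and 27.0, where those differed by 12.2, and Islet1Cre;Ebf1fl/- pairs differed by 10.8 to 25.7. Dlx5/6::Cre;Ebf1fl/- replicate 1 also held the fewest genes with a count, 19810 where the other 8 had 20313 to 22093. Control replicate 3 and Islet1Cre;Ebf1fl/- replicate 3 each held both Xist and transcripts of the Y chromosome, with Ddx3y at 59.6 and 583 normalized counts. Xist RNA marks female cells and Y transcripts mark male cells, so it is in doubt that either library holds RNA of 1 embryo only. By these transcripts Control replicate 2 was male, with Xist at 3.27 and Ddx3y at 917. Control replicate 1, Islet1Cre;Ebf1fl/- replicates 1 and 2 and every Dlx5/6::Cre;Ebf1fl/- embryo were female, with Xist at 10719 or more and Ddx3y at 1.42 or less. Sex was thus uneven across the genotypes, and no fit took it into account. Control replicate 3 was the lowest Control for 39 of 42 members. The embryos carry codes that start with IE (Control replicates 1 and 2 and all Islet1Cre;Ebf1fl/-) or with D (Control replicate 3 and all Dlx5/6::Cre;Ebf1fl/-), so that the code and the mutant genotype coincide and only the Controls hold both.

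What the genes share beyond their names was looked for in their promoters. RefSeq windows of 300 bases on GRCm38.p6, from 250 before to 50 after each start, were at hand for 35 of the 42 genes, in 38 windows. Foxm1, Mcm4, Kif20a, Ccna2, Aurkb, Ccne2 and Tpx2 had no entry. Known elements, 3 in number, of such promoters were searched on both strands, the CCAAT box that binds NF-Y, the cell cycle genes homology region or CHR that binds MuvB complexes with Mybl2 or Foxm1, and E2F-type sites. The CHR was searched as TTTGAA and as TTCGAA. An E2F-type site was searched as TTGGCGC, further as TTCCCGC, then as TTGCCGC and finally as TTCGCGC. The CCAAT box stood in 81.6% of the member windows and in 37.4% of all 32851 windows. A CHR stood in 60.5% of the member windows and in 19.2% of all windows, and an E2F-type site in 31.6% and 9.57%. Both CCAAT and CHR were in 57.9% of the member windows and in 7.52% of all windows. In the 95 windows of the other cell cycle genes described below, CCAAT stood in 51.6%, a CHR in 37.9% and both in 27.4%. An E2F-type site stood in 43.2% of these, a larger share than in the member windows. These are matches of letters and not measured sites. The 130 bases before the start are shown for Top2a, Cdk1, Cdc20 and Kif11, genes of mitosis that hold both elements, then for Mcm6, a licensing gene with E2F-type sites, and for Nusap1, which had no match in the stretch shown. Capitals mark CCAAT, CHR and E2F-type matches on either strand (ATTGG and TTCAAA are the reverse of CCAAT and TTTGAA, and TTCGAA reads the same on both). Cdk1 holds an E2F-type match too, and in Mcm6 each TTGGCGC overlaps with a TTCGCGC on the other strand.
Top2a, chr11:99024190-99024319, minus strand: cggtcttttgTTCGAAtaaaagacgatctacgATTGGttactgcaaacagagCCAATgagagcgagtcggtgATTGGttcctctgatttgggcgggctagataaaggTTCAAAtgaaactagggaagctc
Cdk1, chr10:69352913-69353042, minus strand: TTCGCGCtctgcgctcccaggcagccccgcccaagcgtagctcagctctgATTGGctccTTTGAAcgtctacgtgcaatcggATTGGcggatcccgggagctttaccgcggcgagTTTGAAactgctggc
Cdc20, chr4:118437344-118437473, minus strand: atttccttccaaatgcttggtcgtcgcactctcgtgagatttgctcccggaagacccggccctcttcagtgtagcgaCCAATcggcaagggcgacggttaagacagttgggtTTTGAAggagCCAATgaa
Kif11, chr19:37376252-37376381, plus strand: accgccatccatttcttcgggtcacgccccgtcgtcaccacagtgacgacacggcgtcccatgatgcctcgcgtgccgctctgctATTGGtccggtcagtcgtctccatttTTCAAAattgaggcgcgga
Mcm6, chr1:128359706-128359835, minus strand: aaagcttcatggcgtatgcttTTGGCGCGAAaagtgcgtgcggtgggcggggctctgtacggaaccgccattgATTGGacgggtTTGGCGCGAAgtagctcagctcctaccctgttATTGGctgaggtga
Nusap1, chr2:119618168-119618297, plus strand: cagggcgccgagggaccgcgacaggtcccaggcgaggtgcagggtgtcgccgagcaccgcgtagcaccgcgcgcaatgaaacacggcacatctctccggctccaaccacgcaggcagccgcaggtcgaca
In the embryo described next, Top2a was 4.83-fold and Kif11 4.62-fold of the median of the other 8 embryos, Mcm6 was 2.58-fold of it, and Nusap1, with no match, was 5.08-fold.

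The cell cycle genes were much higher in 1 embryo than in any other. In Dlx5/6::Cre;Ebf1fl/- replicate 1 the 42 genes together took 2165 CPM (counts scaled to the library total), where the other 8 embryos gave 550.0 to 758. This embryo had the highest value of 41 of the 42 genes, the exception being Ccne2, and 37 of the 42 were at least 2-fold above the highest of the other 8. Over all genes tested 2.44% were that far above in this embryo. Its ratio to the median of the other 8 had a median of 3.87 over the 42 genes and ran from 1.47 for Ccne2 to 5.30 for Cenpf, with 30 genes at 3-fold or more and 17 at 4-fold or more. In the other 2 embryos of the same genotype it was 639 and 614, between Control replicate 3 at 550.0 and the other Controls at 669 and 678. Among the Controls, replicate 3 was the lowest for 39 of the 42 genes. Among the 8 embryos without the high one, Islet1Cre;Ebf1fl/- replicates 1, 2 and 3 were the highest for 4, 11 and 20 of the 42 genes.

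**Figure D1:**
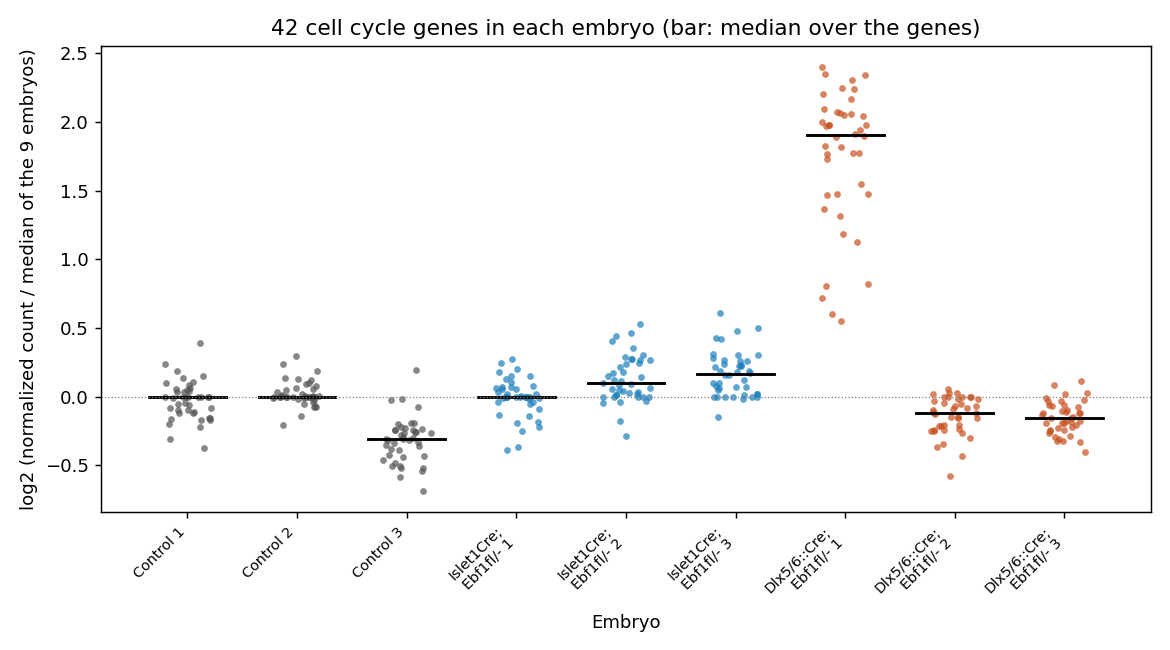
Each point is 1 of the 42 genes in 1 embryo, as the log2 ratio of its normalized count to the median of the 9 embryos, and the bar is the median over the genes. Dlx5/6::Cre;Ebf1fl/- replicate 1 has a median of 1.90, Control replicate 3 the lowest at -0.31, and the other 7 embryos lie between -0.16 and 0.16.

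In the sentences that follow, values are normalized counts of replicates 1, 2 and 3 of each genotype, in that order. The general marks of cycling cells came first. Mki67 (chr7:135689784-135716361), the gene of the Ki-67 antigen of all active phases, gave 747, 756 and 465 in Control, 727, 988 and 868 in Islet1Cre;Ebf1fl/- and 3540.4, 555 and 646 in Dlx5/6::Cre;Ebf1fl/-. Top2a (chr11:98992943-99024189), the topoisomerase that untangles sister chromatids, gave 945, 1052 and 822 in Control, 1105, 1264 and 1489 in Islet1Cre;Ebf1fl/- and 4958, 1002 and 919 in Dlx5/6::Cre;Ebf1fl/-. In both genes Dlx5/6::Cre;Ebf1fl/- replicate 1 was over 3-fold above the next embryo, which was an Islet1Cre;Ebf1fl/- embryo. The other 2 Dlx5/6::Cre;Ebf1fl/- embryos overlapped with the Controls, and for Top2a all 3 Islet1Cre;Ebf1fl/- embryos were above all Controls.

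Among the cyclins and their kinase, those of mitosis ranged far more widely than the E cyclins. Cdk1 (chr10:69335146-69352938), the kinase of mitotic entry, gave 425, 443 and 384 in Control, 493, 451 and 557 in Islet1Cre;Ebf1fl/- and 1772, 468 and 414 in Dlx5/6::Cre;Ebf1fl/-. Ccna2, the cyclin of S phase and G2, gave 506, 499.8 and 389 in Control, 511, 536 and 575 in Islet1Cre;Ebf1fl/- and 2111, 478 and 466 in Dlx5/6::Cre;Ebf1fl/-. For both, the Islet1Cre;Ebf1fl/- embryos lay above all Controls, by a margin far smaller than the gap to Dlx5/6::Cre;Ebf1fl/- replicate 1. Ccnb1, the main mitotic cyclin, gave 188, 214 and 167 in Control, 196, 250.4 and 272 in Islet1Cre;Ebf1fl/- and 784, 180.3 and 188 in Dlx5/6::Cre;Ebf1fl/-. Of its 75 bp windows 18.9% also occur in transcripts of other genes, a Ccnb1 pseudogene among them. Reads that aligned more than once were removed before counting. Ccne1, which starts S phase with Cdk2, gave 116, 105 and 119 in Control, 89.7, 92.2 and 127 in Islet1Cre;Ebf1fl/- and 159, 88.3 and 88.1 in Dlx5/6::Cre;Ebf1fl/-. Ccne2, its close relative, gave 149, 132 and 134 in Control, 136, 111 and 208 in Islet1Cre;Ebf1fl/- and 199, 138 and 129.6 in Dlx5/6::Cre;Ebf1fl/-. For Ccne1 the same embryo was the highest, at 1.61-fold of the median of the other 8, while for Ccne2 Islet1Cre;Ebf1fl/- replicate 3 was above it. The other 2 of this role, Ccnb2 and Ccnf, were 3.59-fold and 2.28-fold of that median in Dlx5/6::Cre;Ebf1fl/- replicate 1.

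The 7 licensing genes ranged from 1.66-fold to 3.89-fold of the median of the other 8 in Dlx5/6::Cre;Ebf1fl/- replicate 1. Mcm2, a subunit of the hexameric helicase, gave 526, 572 and 381 in Control, 518, 619 and 614 in Islet1Cre;Ebf1fl/- and 1957, 501 and 486 in Dlx5/6::Cre;Ebf1fl/-. Mcm5, another subunit, gave 707, 778 and 618 in Control, 771, 787 and 825 in Islet1Cre;Ebf1fl/- and 2252, 693 and 691 in Dlx5/6::Cre;Ebf1fl/-. Pcna, the sliding clamp of the replication fork, gave 1416, 1462 and 1389 in Control, 1518, 1426 and 1530.2 in Islet1Cre;Ebf1fl/- and 2581, 1482 and 1437 in Dlx5/6::Cre;Ebf1fl/-. The 8 other embryos lay within a narrow band for Pcna, and Dlx5/6::Cre;Ebf1fl/- replicate 1 was 1.69-fold above the highest of them. Subunits of the same helicase differed in this embryo, with Mcm2 at 3.75-fold and Mcm3 at 3.89-fold of the median of the other 8, Mcm5 and Mcm6 at 3.05-fold and 2.58-fold, and Mcm7 and Mcm4 at 1.79-fold and 1.66-fold. Pcna and Mcm7 share 13.8% and 9.49% of their 75 bp windows with other genes, Pcna with a pseudogene.

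The 3 genes that supply deoxynucleotides were all at least 2-fold above every other embryo there. Rrm2, the small subunit of ribonucleotide reductase, gave 915, 958 and 739 in Control, 832, 921 and 947 in Islet1Cre;Ebf1fl/- and 2544, 820.4 and 744 in Dlx5/6::Cre;Ebf1fl/-. Tyms, thymidylate synthase, gave 259, 269 and 193 in Control, 300.4, 273 and 261 in Islet1Cre;Ebf1fl/- and 721, 251 and 218 in Dlx5/6::Cre;Ebf1fl/-. For both genes Islet1Cre;Ebf1fl/- overlapped with Control, and Dlx5/6::Cre;Ebf1fl/- replicates 2 and 3 lay below every Islet1Cre;Ebf1fl/- embryo and among the Controls. Rrm1, the large subunit of the reductase, was 2.21-fold of the median of the other 8 in that embryo. Like Anln, it had all 6 mutant embryos above all Controls, at 1462, 1729 and 1587 in Control, 1878, 1757 and 1813 in Islet1Cre;Ebf1fl/- and 3953, 1846 and 1839 in Dlx5/6::Cre;Ebf1fl/-.

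Of the 3 transcription factors, E2f1 acts at the entry into S phase, and Mybl2 and Foxm1 drive the mitotic genes. E2f1 gave 223, 212 and 174 in Control, 238, 214 and 243 in Islet1Cre;Ebf1fl/- and 532, 168 and 188 in Dlx5/6::Cre;Ebf1fl/-. Mybl2 gave 127, 93.1 and 66.4 in Control, 96.5, 119 and 129 in Islet1Cre;Ebf1fl/- and 405, 64.7 and 82.4 in Dlx5/6::Cre;Ebf1fl/-. Foxm1 gave 375, 367 and 279.9 in Control, 333, 506 and 415 in Islet1Cre;Ebf1fl/- and 1511, 338 and 301 in Dlx5/6::Cre;Ebf1fl/-. The 2 factors of mitosis were 4.27-fold and 4.29-fold of the median of the other 8 in Dlx5/6::Cre;Ebf1fl/- replicate 1, and E2f1 was 2.49-fold of it. Of the Mybl2 75 bp windows 17.1% occur in other genes.

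All 7 mitotic kinases and checkpoint proteins were at least 2-fold above every other embryo in Dlx5/6::Cre;Ebf1fl/- replicate 1, at 3.35-fold to 5.25-fold of the median of the other 8. Aurkb, the kinase of the chromosomal passenger complex, gave 205, 204 and 163 in Control, 249, 243 and 231 in Islet1Cre;Ebf1fl/- and 854, 190.3 and 189 in Dlx5/6::Cre;Ebf1fl/-. Birc5 (survivin), which belongs to the same complex, gave 168, 189 and 135 in Control, 193, 219 and 192 in Islet1Cre;Ebf1fl/- and 783, 187 and 143 in Dlx5/6::Cre;Ebf1fl/-. Every Islet1Cre;Ebf1fl/- embryo exceeded every Control for both genes. Plk1, a kinase of mitotic entry and exit, gave 279, 271 and 229 in Control, 270.5, 291 and 295 in Islet1Cre;Ebf1fl/- and 924, 234 and 239.7 in Dlx5/6::Cre;Ebf1fl/-. Bub1, a kinase of the spindle checkpoint, gave 172, 173 and 134 in Control, 129, 184 and 166 in Islet1Cre;Ebf1fl/- and 585, 138 and 140.2 in Dlx5/6::Cre;Ebf1fl/-. Islet1Cre;Ebf1fl/- overlapped with Control for both, and with the high embryo set aside the Dlx5/6::Cre;Ebf1fl/- embryos were below every Islet1Cre;Ebf1fl/- embryo for Plk1 and overlapped with them for Bub1. Bub1b (BubR1, chr2:118598211-118641591), which holds back the anaphase-promoting complex until chromosomes are attached, gave 289, 305 and 215 in Control, 345, 368 and 376 in Islet1Cre;Ebf1fl/- and 1559, 259.5 and 278 in Dlx5/6::Cre;Ebf1fl/-. With Cenpf and Nusap1 it had the highest ratio of Dlx5/6::Cre;Ebf1fl/- replicate 1 to the median of the other 8, 5.25-fold. Aurka and Cdca8 completed the role at 3.98-fold and 3.35-fold.

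The set holds 2 partners of the anaphase-promoting complex. Cdc20, its activator, gave 312, 432 and 274 in Control, 352, 429 and 437 in Islet1Cre;Ebf1fl/- and 1381, 295 and 302 in Dlx5/6::Cre;Ebf1fl/-. Ube2c (chr2:164769898-164778822), the ubiquitin-conjugating enzyme that works with it, gave 336, 379.7 and 300.1 in Control, 427, 399 and 359.7 in Islet1Cre;Ebf1fl/- and 1778, 359 and 352 in Dlx5/6::Cre;Ebf1fl/-. Ube2c was 4.17-fold and Cdc20 3.16-fold above the next highest embryo in Dlx5/6::Cre;Ebf1fl/- replicate 1.

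Of the spindle and centromere genes, all 9 were at least 2-fold above every other embryo in Dlx5/6::Cre;Ebf1fl/- replicate 1. Kif11, the motor that pushes the spindle poles apart, gave 411, 346 and 266 in Control, 378, 389 and 512 in Islet1Cre;Ebf1fl/- and 1753, 382 and 355 in Dlx5/6::Cre;Ebf1fl/-. Prc1, which bundles the microtubules of the midzone, gave 694, 589.6 and 513 in Control, 495, 587 and 655 in Islet1Cre;Ebf1fl/- and 2004, 509 and 494 in Dlx5/6::Cre;Ebf1fl/-. For Prc1 the remaining 2 Dlx5/6::Cre;Ebf1fl/- embryos were just below every Control, and for Kif11 they overlapped with them. Kif23, a motor of the midbody, gave 203, 220.5 and 185 in Control, 245, 319 and 259.5 in Islet1Cre;Ebf1fl/- and 755, 185 and 178 in Dlx5/6::Cre;Ebf1fl/-. Nusap1, a spindle microtubule protein, gave 283, 323 and 241 in Control, 281, 302 and 340.0 in Islet1Cre;Ebf1fl/- and 1433, 259.5 and 255 in Dlx5/6::Cre;Ebf1fl/-. Islet1Cre;Ebf1fl/- was above all Controls for Kif23 and overlapped with them for Nusap1. Tpx2 and Kif20a, the other 2 of this role, were 4.78-fold and 3.96-fold of the median of the other 8 in the high embryo. Cenpf (chr1:189640606-189688086), a kinetochore protein of G2 and mitosis, gave 281, 288 and 175 in Control, 199.8, 356 and 259.5 in Islet1Cre;Ebf1fl/- and 1383, 262 and 256 in Dlx5/6::Cre;Ebf1fl/-. Cenpa, the histone H3 variant of centromeres, gave 340.1, 305 and 224 in Control, 321, 326 and 338 in Islet1Cre;Ebf1fl/- and 1205, 278 and 257 in Dlx5/6::Cre;Ebf1fl/-. For both, Control replicate 3 was the lowest of the 9 embryos, and Cenpe, a kinetochore motor, had the same lowest embryo.

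For cytokinesis, Ect2, which activates RhoA at the cell equator, gave 177, 192 and 159.7 in Control, 201, 231 and 226 in Islet1Cre;Ebf1fl/- and 819, 186 and 191 in Dlx5/6::Cre;Ebf1fl/-. Anln (anillin), a scaffold of the contractile ring, gave 147, 165 and 134 in Control, 167, 206 and 204 in Islet1Cre;Ebf1fl/- and 529, 190.3 and 194 in Dlx5/6::Cre;Ebf1fl/-. Anln was separated between the Controls and all 6 mutant embryos, and its ratio in Dlx5/6::Cre;Ebf1fl/- replicate 1 was 2.96-fold where that of Ect2 was 4.28-fold.

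**Figure D2:**
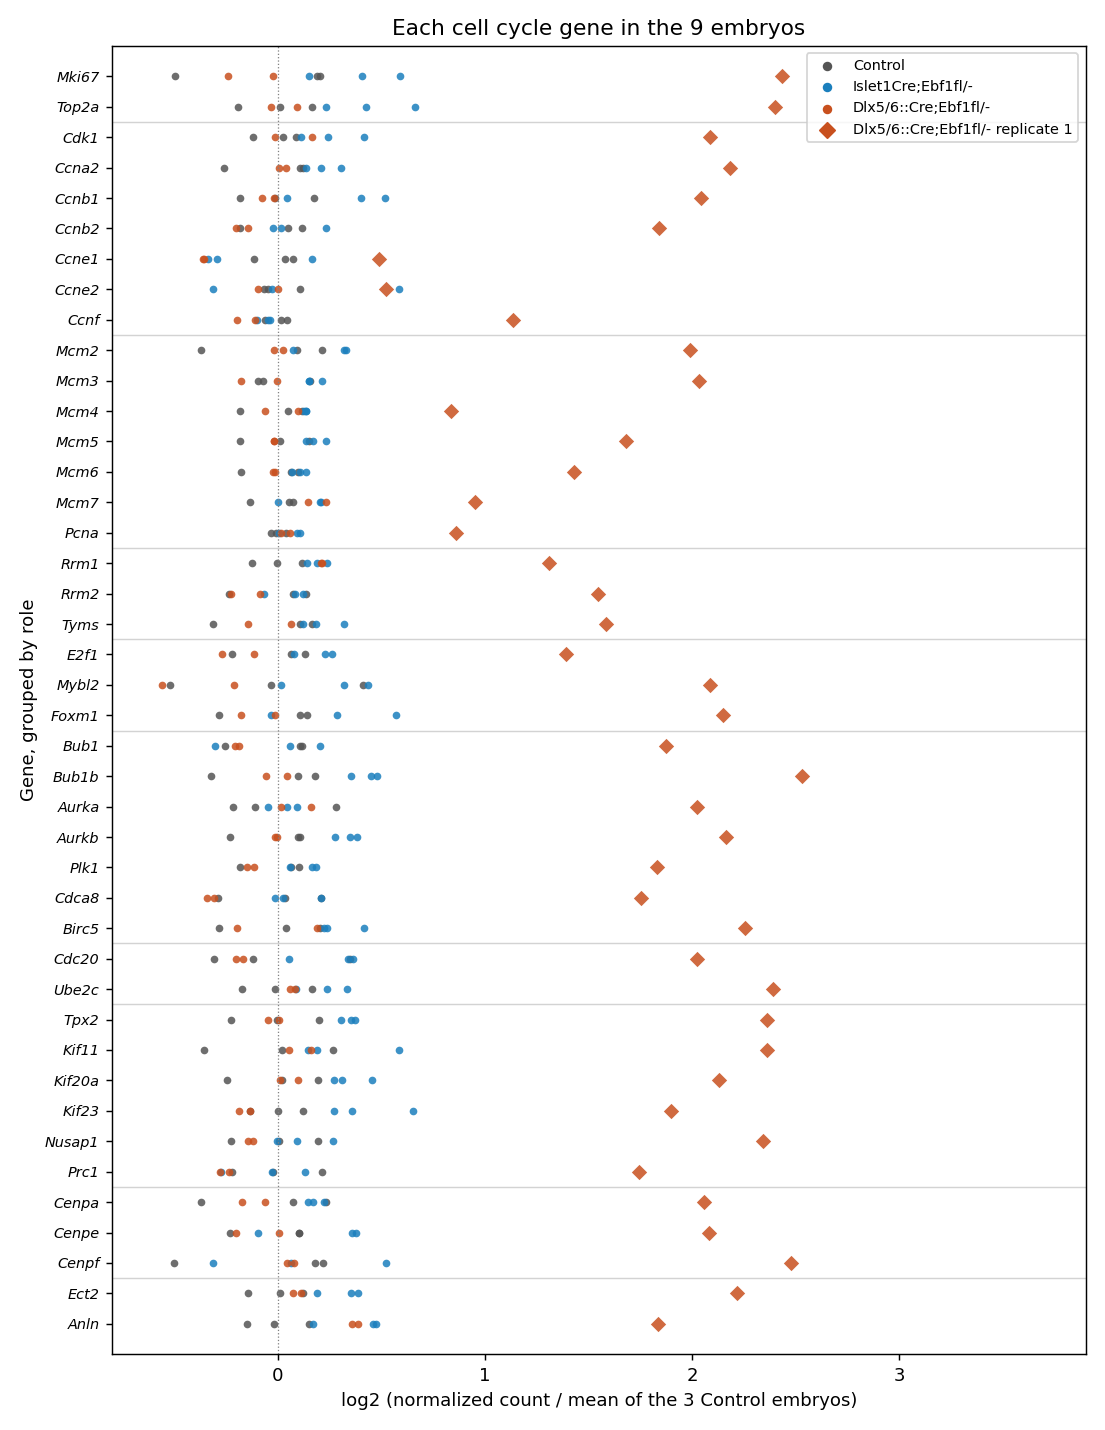
Each row is 1 gene, grouped by role from the marks of cycling cells at the top to cytokinesis at the bottom, and each point is 1 embryo as the log2 ratio of its normalized count to the mean of the 3 Controls. The diamond, Dlx5/6::Cre;Ebf1fl/- replicate 1, lies to the right of all other points in 41 of the 42 rows, while the remaining points of the 3 genotypes intermingle or lie close.

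The comparison of Dlx5/6::Cre;Ebf1fl/- with Control asked whether deletion of Ebf1 in projection neurons of both pathways, from the subventricular zone on, went with a change in the cell cycle genes. No member passed an adjusted p of 0.05 in edgeR's quasi-likelihood test, where 2.39% of all genes tested did. At an unadjusted p below 0.05 there were 16 of 42 members, beside 15.5% of all genes, and 7 in DESeq2, which also called none. The log2 fold changes had a median of 0.99 over the members and 0.01 over all genes tested, and 41 of 42 were positive beside 52.3% of all genes. Without Control replicate 3 the median of the members was 0.83 and all 42 were positive. The 3 with the largest difference were Bub1b at 1.37 (95% interval 0.11 to 2.62, adjusted p = 0.282), Cenpf at 1.35 (0.08 to 2.61, adjusted p = 0.291) and Ube2c at 1.29 (0.14 to 2.43, adjusted p = 0.263). Only Rrm1, Mcm7 and Anln, 3 of 42, had all 3 Dlx5/6::Cre;Ebf1fl/- embryos above all Controls, where 9.63% of all genes did.

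Without Dlx5/6::Cre;Ebf1fl/- replicate 1 the difference was not seen. The median of the members was then -0.03, 15 of 42 were positive beside 48.9% of all genes, and 0 members were called beside 3.68% of all genes in the same fit. Mki67 went from 1.26 (-0.02 to 2.55) to -0.13 (-0.56 to 0.30). Top2a went from 1.28 (0.12 to 2.45) to 0.03 (-0.27 to 0.32), and Cdk1 from 1.08 (0.09 to 2.07) to 0.08 (-0.20 to 0.35). The factors followed, with Foxm1 going from 1.07 to -0.10 and E2f1 from 0.54 to -0.19. Of the genes less raised in that embryo, Pcna went from 0.36 to 0.04, Mcm7 from 0.49 to 0.19 and Ccne1 from -0.02 to -0.36. For all 42 members the 95% intervals without it leave out a difference of 1 on the log2 scale in either direction. That embryo carried most of the difference and most of the spread, so narrower intervals follow from leaving it out. They describe the 2 remaining embryos against the Controls and set no limit on a difference between the genotypes. At an unadjusted p below 0.05 there were 3 members, beside 17.2% of all genes, namely Rrm1 (0.21) and Anln (0.37) on the higher side and Cdca8 (-0.33) on the lower. The 2 remaining embryos were both above all Controls for 3 members, beside 19.0% of all genes, and both below for 4 (Ccne1, Ccnf, Cdca8 and Prc1), beside 19.3%.

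**Figure D3:**
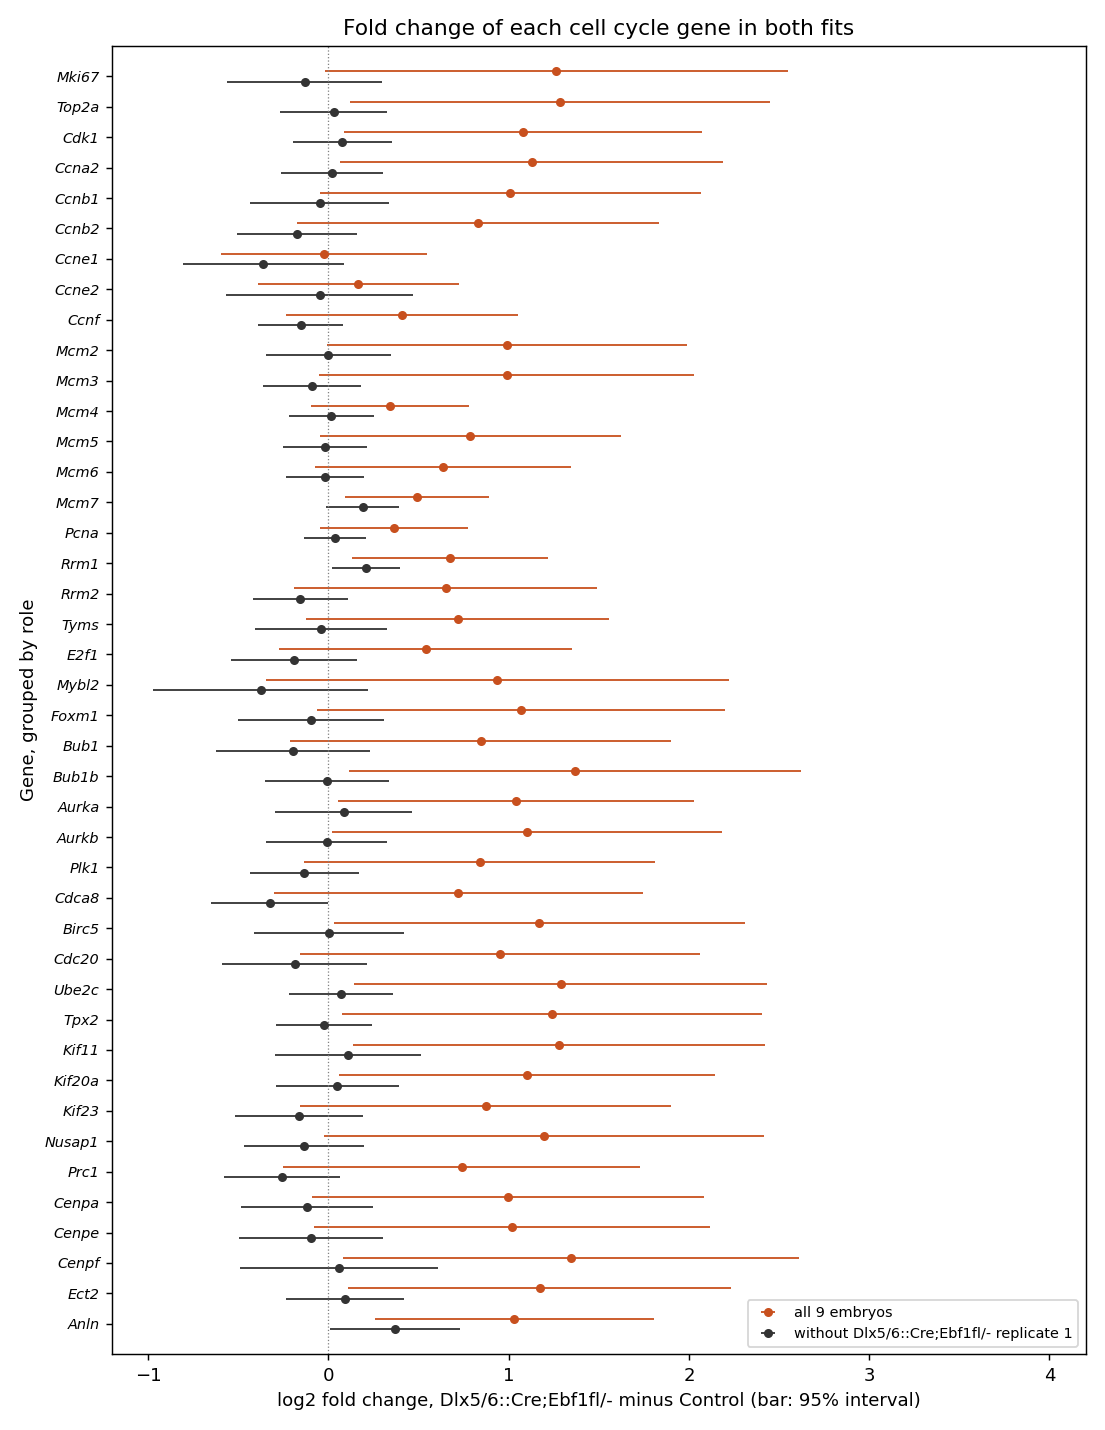
Log2 fold change of each gene between Dlx5/6::Cre;Ebf1fl/- and Control with its 95% interval, from the fit of all 9 embryos and from the fit without Dlx5/6::Cre;Ebf1fl/- replicate 1. With all embryos the points have a median of 0.99 and wide intervals, and without that embryo they lie around 0 with a median of -0.03.

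Islet1Cre;Ebf1fl/- against Control asked the same after deletion in differentiated dSPN. No member passed the adjusted threshold, which 0.971% of all genes did, and at an unadjusted p below 0.05 there were 0 members in edgeR and in DESeq2, beside 7.93% of all genes in edgeR. The differences were small and mostly positive, with a median log2 fold change of 0.20 over the members and -0.0016 over all genes, and with 39 of 42 positive beside 49.5% of all genes. Top2a was at 0.45 (-0.72 to 1.61, adjusted p = 0.999), Kif23 at 0.44 (-0.60 to 1.47, adjusted p = 0.999) and Bub1b at 0.42 (-0.84 to 1.68, adjusted p = 0.999). Every Islet1Cre;Ebf1fl/- embryo was above every Control for 13 of 42 members (Top2a, Cdk1, Ccna2, Mcm4, Rrm1, Bub1b, Aurkb, Birc5, Tpx2, Kif20a, Kif23, Ect2 and Anln), beside 7.83% of all genes. The count was 13 beside 11.2% without Control replicate 3, and 16 beside 16.3% without both that embryo and Islet1Cre;Ebf1fl/- replicate 3, the 2 libraries with both Xist and Y transcripts. This fit takes 1 spread per gene from all 3 genotypes, so Dlx5/6::Cre;Ebf1fl/- replicate 1 enters it. Without that embryo 11 of 42 members had an unadjusted p below 0.05, beside 11.4% of all genes, and still 0 passed the adjusted threshold, beside 2.38%. The lowest adjusted p was then 0.102, for Top2a. Against only the Controls with the same code prefix the median was 0.09, with 33 of 42 positive.

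Between the mutants, Dlx5/6::Cre;Ebf1fl/- minus Islet1Cre;Ebf1fl/-, no member was called by edgeR or DESeq2, and edgeR called 0% of all genes. At an unadjusted p below 0.05 there was 1 member, Aurka, in edgeR and 1 in DESeq2, beside 5.16% of all genes in edgeR. All 42 log2 fold changes were positive, beside 53.3% of all genes, with a median of 0.76. The largest were Cenpf at 1.21 (-0.06 to 2.48, adjusted p = 0.868), Nusap1 at 1.08 (-0.15 to 2.30, adjusted p = 0.868) and Ube2c at 1.07 (-0.08 to 2.21, adjusted p = 0.868). Without Dlx5/6::Cre;Ebf1fl/- replicate 1 the direction turned. The median became -0.24, where that of all genes in the same fit was -0.00014. The 2 remaining embryos were below all 3 Islet1Cre;Ebf1fl/- embryos for 29 of 42 members, beside 12.3% of all genes, and again for 29 beside 16.9% when Islet1Cre;Ebf1fl/- replicate 3 was left out too. No member was called there, beside 0.0120% of all genes, and 10 had an unadjusted p below 0.05, beside 5.81%.

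The same split follows the embryo codes. With Dlx5/6::Cre;Ebf1fl/- replicate 1 set aside, the 3 embryos with the prefix D (Control replicate 3 and Dlx5/6::Cre;Ebf1fl/- replicates 2 and 3) were all below the 5 embryos with the prefix IE for 19 of 42 members, beside 2.15% of all genes, and for 22 of the 97 other cell cycle genes. With that embryo included no member meets this. The members moved together across embryos, so 19 of 42, like the other counts over members, does not stand for independent results. When the prefix was a covariate and the embryo was left out, the median of the members was 0.19 for Dlx5/6::Cre;Ebf1fl/- against Control, 0.09 for Islet1Cre;Ebf1fl/- against Control and 0.05 between the mutants. Control replicate 3 is the only Control with the prefix D. The first value therefore sets Dlx5/6::Cre;Ebf1fl/- replicates 2 and 3 against that library alone, and the value between the mutants depends on it too. That library was the lowest Control for 39 of 42 members, and whether it holds RNA of a single embryo is in doubt. What the prefix stands for is not given in the labels, and whether the code or the genotype goes with the lower values of these embryos cannot be told apart between the mutants.

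Other genes of the cycle, 97 in 7 lists of which 96 were tested, were also high in Dlx5/6::Cre;Ebf1fl/- replicate 1. No gene of these lists passed the adjusted threshold in any of the 3 comparisons. In Dlx5/6::Cre;Ebf1fl/- against Control 19 of 96 had an unadjusted p below 0.05, a share near the 15.5% of all genes, and the median was 0.76. In the high embryo 53 of 96 were at least 2-fold above every other embryo, beside 2.44% of all genes. The list of kinetochore, condensin and spindle genes had 28 of 31 above that line and a median of 3.98-fold of the median of the other 8. The exception with the lowest ratio was Cit, citron kinase of the midbody, which neurons also express, at 0.760-fold. Mitotic entry and checkpoint kinases had 9 of 14 above the line, and the origin and fork genes 8 of 21. Pocket proteins and other E2F factors had 2 of 12, namely E2f2 at 4.69-fold and E2f8 at 4.04-fold, whereas Rb1 was at 1.24-fold and Rbl2 at 0.928-fold.

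The G1 cyclins differed among themselves. Ccnd2, the D cyclin of neural progenitors, gave 4759, 4621 and 4176 in Control, 3898, 4460.3 and 4725 in Islet1Cre;Ebf1fl/- and 19134, 3438 and 3766 in Dlx5/6::Cre;Ebf1fl/-. Dlx5/6::Cre;Ebf1fl/- replicate 1 was 4.02-fold above the next embryo and the other 2 of its genotype were below all others, while Ccnd1 and Ccnd3 were at 1.79-fold and 1.56-fold of the median of the other 8. Among the inhibitors of cyclin-dependent kinases, which hold cells out of the cycle, Cdkn2c was at 4.29-fold and Cdkn1b at 1.66-fold. Cdkn1a (p21) gave 989.5, 958 and 984 in Control, 834, 792 and 929 in Islet1Cre;Ebf1fl/- and 706, 891 and 774 in Dlx5/6::Cre;Ebf1fl/-, and the high embryo was the lowest of the 9 for it. Every embryo of both mutants was below every Control. Without that embryo 3 of these genes passed the adjusted threshold in Dlx5/6::Cre;Ebf1fl/- against Control, all lower in the mutant. A count of 3 among 96 is no larger a share than the 3.68% of all genes called in that fit. The 3 were E2f7, a repressor of E2F targets, at -1.05 (adjusted p = 0.016), Ccnd3 at -0.48 (adjusted p = 0.030) and Cdkn1c (p57), an inhibitor of cells that leave the cycle, at -0.53 (adjusted p = 0.049). E2f7 gave 219.8, 169 and 194 in Control, 121, 146 and 152 in Islet1Cre;Ebf1fl/- and 338, 81.04 and 107 in Dlx5/6::Cre;Ebf1fl/-. Its 2 lower Dlx5/6::Cre;Ebf1fl/- embryos were below every Control, and the third was above them. All 3 Islet1Cre;Ebf1fl/- embryos were also below every Control, at -0.48 (adjusted p = 0.973) with all embryos in the fit.

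Markers of other cells moved with the high embryo. The summed normalized counts of 14 markers of ventral telencephalic progenitors were 28342 to 29854 in Control, 29163 to 32054 in Islet1Cre;Ebf1fl/-, 63667 in Dlx5/6::Cre;Ebf1fl/- replicate 1 and 33673 and 29359.8 in its 2 fellows. In that embryo 6 of the 14 were at least 2-fold above every other, among them Gsx2 at 6.34-fold, Pax6 at 5.32-fold and Dlx2 at 3.50-fold of the median of the other 8. Gsx1 was at 0.618-fold. The sum of 6 markers of cortical intermediate progenitors and excitatory neurons was 1010.1 to 2387 in Control, 1163 to 1827 in Islet1Cre;Ebf1fl/-, 6036 in the high embryo and 2278 and 2599 in its fellows. All 6 were highest there, with Neurog2 at 7.86-fold and Eomes at 6.02-fold, which mark cycling or newly formed cortical cells, and with Tbr1, of postmitotic cortical neurons, at 2.71-fold. The sum of 12 markers of striatal projection neurons was lowest there, at 73804 against 88916 to 107449 in Control and 88332 to 94367 in Islet1Cre;Ebf1fl/-. Among them Foxp1 was the only gene of these lists called with all embryos, lower in Dlx5/6::Cre;Ebf1fl/- than in Control at -0.53 (adjusted p = 0.031). Without the high embryo 1 of these 12 markers was still called lower (lowest edgeR adjusted p = 0.032), beside 3.68% of all genes called in that fit. The part of these cell types in the values of the cell cycle genes was not tested.

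Markers of glial, vascular and blood cells differed little in that embryo. The sum of 5 markers of oligodendrocyte precursors was 4639 in Dlx5/6::Cre;Ebf1fl/- replicate 1, within 4253 to 5433 of the Controls. The same held for 6 endothelial markers, at 4415 where the Controls ran 3707 to 4981, for 4 mural markers, at 2881 where they ran 2568 to 3173, and for 6 erythroid genes, at 11041 where they ran 9115 to 17079. For 6 genes of microglia and macrophages the sum was 2513, above the Controls at 2203 to 2404, with 2589.7 and 2417 in its 2 fellows. Meningeal fibroblast genes summed to 303 where the Controls ran 121 to 229. Of the 4 ependymal and choroid plexus genes 2 were tested, and they went in opposite directions. Foxj1 of ciliated cells gave 319.5, 117 and 158 in Dlx5/6::Cre;Ebf1fl/- and 147, 171 and 140.4 in Control. In the high embryo it was at 2.22-fold of the median of the other 8, and the other gene tested was at 0.327-fold. Ttr and Folr1 of choroid plexus were at or close to 0 in all embryos.

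**Figure D4:**
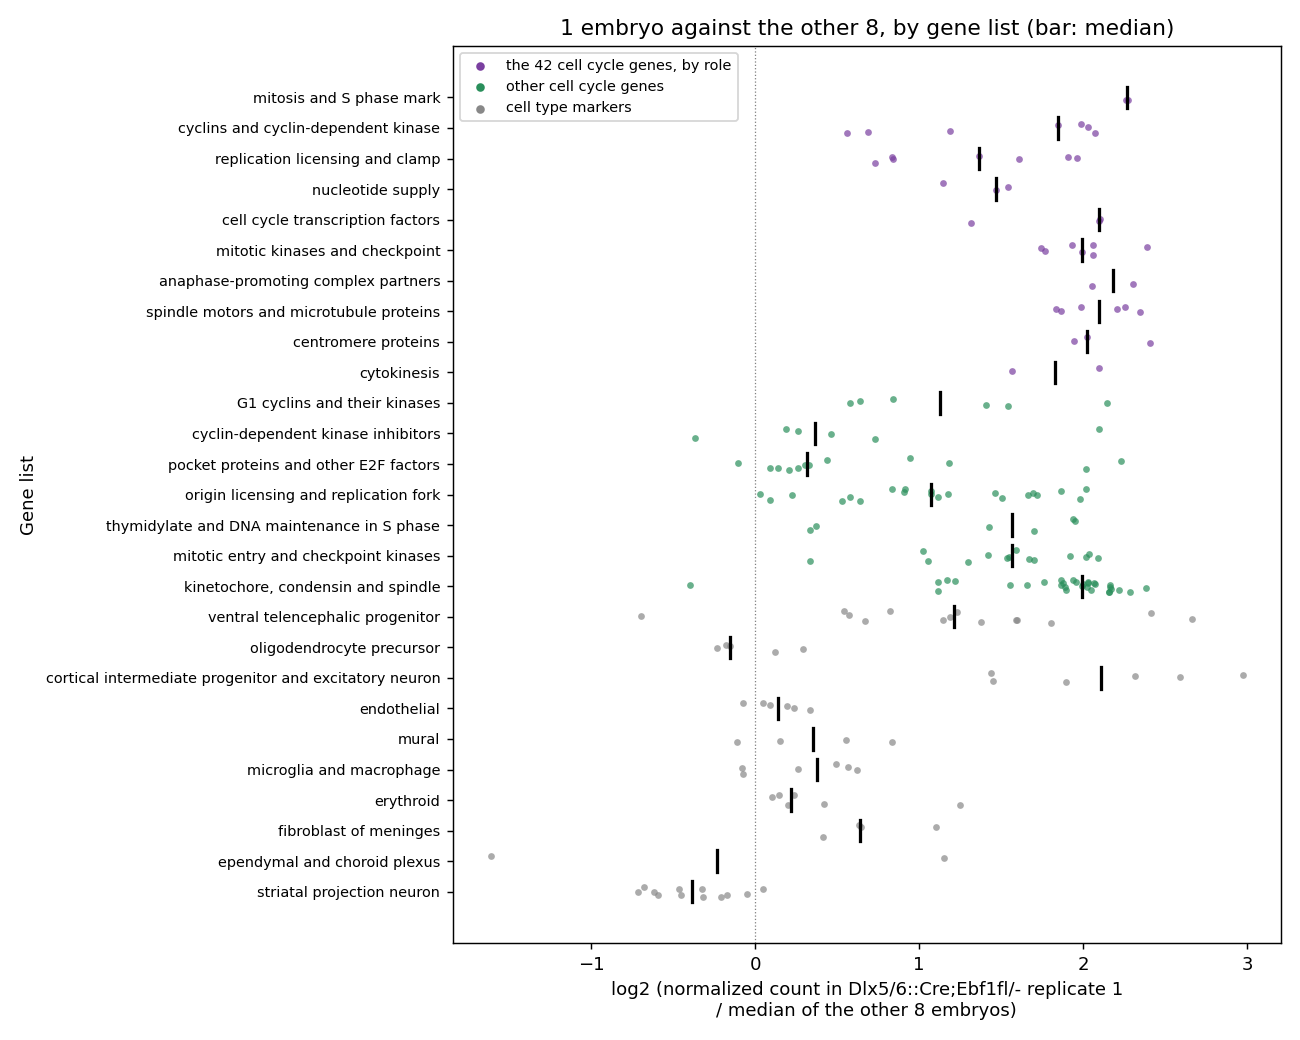
Each point is 1 gene as the log2 ratio of its normalized count in Dlx5/6::Cre;Ebf1fl/- replicate 1 to the median of the other 8 embryos, by list, with the median as a bar. The 10 roles of the 42 genes lie to the right of 0 in every gene, progenitor and cortical markers lie mostly to the right, glial, vascular and blood markers lie near 0, and projection neuron markers lie mostly to the left.

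In the Controls the levels per length, as CPM per kilobase of merged exons, ran from 0.53 to 19.6. Pcna was highest at 19.6 ± 0.561 (mean ± SD, n = 3), followed by Mcm7 at 15.4 ± 1.32 and Rrm2 at 10.4 ± 1.45, each further from the next than their SD. Mcm4 at 6.33 ± 0.703, Mcm6 at 6.32 ± 0.678, Cdc20 at 6.02 ± 1.42 and Mcm5 at 5.82 ± 0.674 did not differ from each other beyond their spread. Top2a stood at 3.46 ± 0.425, Cdk1 at 2.81 ± 0.219 and Mki67 at 2.16 ± 0.563. The lowest were Mybl2 at 0.685 ± 0.229, Anln at 0.543 ± 0.0563 and Cenpf at 0.534 ± 0.140, with overlapping spreads. Merged exons are at least as long as any 1 transcript, which lowers the level of genes with many annotated forms.

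The spread within genotypes was large with Dlx5/6::Cre;Ebf1fl/- replicate 1 and near that of other genes without it. The SD of log2 CPM within groups had a median of 0.71 over the 42 members and of 0.18 over all genes tested, and all 42 were above the latter. Without that embryo the medians were 0.16 and 0.15, and 22 of 42 were above the latter. The members then ran from 0.046 for Pcna to 0.37 for Cenpf. With all embryos it ran, by role, from 0.49 for replication licensing to 0.85 for the marks of cycling cells. The ratio of the high embryo to the median of the other 8 had a median of 3.91 in the 20 genes with both CCAAT and CHR in a promoter window and of 2.96 in the 15 with a window but not both. The 2 sets overlapped, at 1.79 to 5.30 and 1.61 to 5.08.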

How the data were processed

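RNA-seq was done on the striatum of 9 E17.5 embryos, 3 per genotype, with stranded polyA libraries and 75 bp reads. The authors aligned the reads to mm10 with STAR 2.4.0k, removed multi-mapping alignments and counted reads per Ensembl 81 gene with HTSeq-count 0.5.3 in the Eoulsan pipeline, and deposited the raw counts of each embryo, which are the unit used here. Their own normalization with DESeq 1.8.3 was not used.

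Of the 44886 gene identifiers, 44133 were matched to GENCODE M21 (GRCm38) for symbols, positions and exon lengths, among them all 42 members, the 97 other cell cycle genes and the 68 markers. A further marker is not reported here. The embryos were grouped by the labelled genotype. Genes were kept by filterByExpr with a minimum count of 10, which left 16368, and all 9 embryos entered 1 edgeR 4.0.16 quasi-likelihood fit (R 4.3.3, TMM) with 3 groups, with Benjamini-Hochberg adjustment over all genes and a threshold of 0.05. Intervals are 95% intervals of the log2 fold change. Printed levels are counts divided by DESeq2 1.42.0 size factors. Totals of 16548083 to 41507049 counts limit the precision by counting error less than the spread between embryos does. With 3 against 3 embryos an exact permutation test of 1 gene cannot go below p = 0.1, so it was not used. P-values set the difference between genotypes against the spread between these embryos, taken over all 3 genotypes.

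Values in every embryo are given for any member past the threshold, for fixed examples of each role, and for the 3 members with the largest absolute log2 fold change in each comparison among those with a mean normalized count of at least 100. Genes described further were chosen after their values were seen. The members and lists were chosen with earlier results of these data known. The alternatives were DESeq2, other scalings and filters, only the samples compared, the replicate number as a block, the prefix of the embryo code, and each embryo left out. Left out after the data were seen were Dlx5/6::Cre;Ebf1fl/- replicate 1 together with a prefix term or with Islet1Cre;Ebf1fl/- replicate 3.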

Additional observations from a re-analysis of the deposited data

How the results depend on the processing

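The absence of calls among the 42 genes held under every alternative run except the fit with no filter on low counts, where 2 were called in Dlx5/6::Cre;Ebf1fl/- against Control, Rrm1 (0.67, edgeR adjusted p = 0.040) and Anln (1.02, adjusted p = 0.0496). Leaving out 1 embryo at a time, the median of the members ran from -0.032 (without Dlx5/6::Cre;Ebf1fl/- replicate 1) to 1.31 against Control, from -0.24 (without it) to 1.09 between the mutants, and from 0.10 to 0.26 for Islet1Cre;Ebf1fl/- against Control. The ranges of single genes were, against Control, -0.13 to 1.67 for Mki67, -0.19 to 0.82 for E2f1, -0.097 to 1.42 for Foxm1 and -0.0089 to 1.76 for Bub1b, and between the mutants -0.084 to 1.58 for Cenpf, -0.25 to 1.46 for Nusap1 and -0.16 to 1.43 for Ube2c, with the lowest always from leaving out that embryo. With it left out and the code prefix as a covariate the medians were 0.19 and 0.048, and both rest on Control replicate 3 as the only Control of its prefix. Ccne1, at -0.024 against Control, ran from -0.36 without that embryo to 0.12 without Dlx5/6::Cre;Ebf1fl/- replicate 2. Of 321 alternative values for 18 gene results, 310 kept direction and side of the threshold. The values against Controls of the same prefix are among them and only repeat those of the prefix covariate. No gene was past the threshold as reported, so keeping its side says little. Direction was reversed in 10, of which 7 came from fits without Dlx5/6::Cre;Ebf1fl/- replicate 1, and 1 value passed the threshold. Members with an unadjusted p below 0.05 in edgeR varied in number (all genes in brackets). Against Control, Dlx5/6::Cre;Ebf1fl/- had 16 as reported and 38 with no filter (3248 of 26563). Without its replicate 2 or 3 it had 39 (2674) or 38 (2498). With only the 6 samples compared or the replicate block it had 3 (2130) and 3 (2361). Between the mutants the same fits gave 1, 30 (1392), 35 (1202), 33 (1142), 0 (678) and 0 (737).

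Counts of calls over all genes moved more than calls among the members. For Islet1Cre;Ebf1fl/- against Control, Dlx5/6::Cre;Ebf1fl/- against Control and between the mutants, in that order, they were 159, 392 and 0 as reported, 397, 844 and 17 with DESeq2, 311, 708 and 13 with no filter, 259, 181 and 2 with only the 6 samples compared, 61, 32 and 1 with the code prefix as a covariate, 61 and 32 (first 2 comparisons) against Controls of the same prefix, and 248, 138 and 2 with the prefix and without Dlx5/6::Cre;Ebf1fl/- replicate 1. Leaving out 1 embryo at a time gave 15 to 397, 143 to 613 and 0 to 4 in the comparisons, in the order above. With the replicate number as a block they were 143, 363 and 0, and the members' medians 0.22, 0.73 and 0.49, with no call changed. The numbers do not pair the embryos, since same-numbered embryos of different genotypes had correlations of -0.23 to 0.18. The cause of these shifts was not tested.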
